A study of Mus musculus with 66 samples.

Results

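The miRNAs described here are 7 that plasma studies often use as references against which other circulating miRNAs are scaled. They are mmu-miR-484, mmu-miR-191-5p, mmu-miR-425-5p, mmu-miR-423-3p, mmu-miR-423-5p, mmu-miR-103-3p and mmu-miR-320-3p, written below without the prefix for mouse. They were chosen by name, and all 7 were found among the 1826 miRNAs of the C3H table. Plasma was drawn at necropsy from 13 male C3H mice, an inbred strain prone to liver tumors, and small RNA libraries were counted by unique molecular index (UMI), so that copies of a molecule made by amplification count once. By the labels, 8 mice had hepatocellular carcinoma (HCC) and 5 did not (non-HCC), and each of the 13 is listed at more than 12 months after radiation, with no dose, age or genetic change named. The methods of the study say that the HCC group joins tumors that arose spontaneously with tumors induced by radiation, which the labels do not tell apart. The question asked was how steady each of the 7 was against a spike-in scale and against a scale made from the miRNA counts, and what the contrast between the groups became when it was normalized to them.

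A miRNA is cut from a hairpin precursor, and either arm of the hairpin, named 5p or 3p, can be kept as the mature strand that pairs with messenger RNAs through its seed near the 5′ end. Plasma holds miRNAs released by blood cells, endothelium and organs such as the liver, inside vesicles or bound to proteins. Since plasma has no cell number to divide by, a circulating miRNA is read relative to a synthetic RNA added before isolation, to all miRNAs together, or to reference miRNAs that are taken to stay level.

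The mature sequences are shown so that the members that share a hairpin or a seed can be seen. They come from RefSeq on GRCm38.p6, are written 5′ to 3′, and carry the seed, bases 2 to 8, in capitals. Of the 7, 6 matched an entry there, and miR-107-3p is added as the closest relative of miR-103-3p.
miR-484: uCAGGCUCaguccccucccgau
miR-191-5p: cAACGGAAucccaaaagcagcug
miR-425-5p: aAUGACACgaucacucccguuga
miR-423-3p: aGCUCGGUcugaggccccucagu
miR-423-5p: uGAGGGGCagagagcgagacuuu
miR-103-3p: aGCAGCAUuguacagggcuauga
miR-107-3p: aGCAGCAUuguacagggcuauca
No seed was shared between the 6 members shown. The seed of miR-103-3p is also that of miR-107-3p, and these differ by G22C, counted from 1 at the 5′ end with the base of miR-103-3p first, so that reads of either could be assigned to the other. Guanine and cytosine made up 63.6% of miR-484, 65.2% of miR-423-3p and 56.5% of miR-423-5p, against 47.8% of miR-425-5p and miR-103-3p and 52.2% of miR-191-5p.

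Positions of the hairpins are those of GENCODE M21, on GRCm38. Mir191 (chr9:108568319-108568392) and Mir425 (chr9:108568777-108568861) lie 384 bases apart on the same strand, in exonic sequence of 4833445I07Rik, a long noncoding RNA gene, and are known to be made from a common primary transcript. Mir423 (chr11:77078064-77078172), the source of both miR-423 strands, lies in an intron of Nsrp1, a gene of a splicing factor. Mir103-1 (chr11:35782396-35782481) and Mir103-2 (chr2:131288052-131288137) lie in introns of Pank3 and Pank2, which encode pantothenate kinases, and the UMIs of miR-103-3p cannot be assigned to either copy. Mir484 (chr16:14159626-14159692) overlaps an exon of Marf1 on the opposite strand, and Mir320 (chr14:70443510-70443591) overlaps no other annotated gene. The hairpins of miR-484 and miR-320 are known to be made without cutting by Drosha, the nuclease that frees most miRNA hairpins.

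Between 9513136 and 14247488 miRNA UMIs were counted per mouse, and the 7 members together gave 1.70% to 3.23% of them. The lowest count of any member in any mouse was 4809 UMIs, of miR-423-3p, so that counting error was at most 1.44% of a value and the spread between mice set the precision. MiR-191-5p gave 122793 to 192551 UMIs per mouse and ranked 16th of all miRNAs by its share of UMIs, and miR-423-3p, the least counted member, ranked 83rd. These ranks are by UMIs, which also depend on how well each sequence was captured, and the sequences shown are 22 or 23 bases long. Some HCC libraries stood very close together. Over the miRNAs with at least 100 UMIs in every mouse, the SD of the log2 ratio was 0.207 to 0.245 for HCC mice 1 and 6, 2 and 5, and 3 and 7, against 0.793 to 1.61 for the other 25 pairs within HCC and 0.369 to 0.775 for the 10 pairs within non-HCC. The 3 similar pairs still differed by more than counting noise, with a chi-square of 101 to 266 times its degrees of freedom, so they were not counted as 1 library. Whether the libraries of a pair come from separate mice was not tested. Each was kept under its own label, and some results are also given with these pairs summed, which leaves 5 HCC values. The ranks and the test of scatter were not repeated that way.

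The number of miRNA UMIs spanned 1.498-fold over the 13 mice. The mean UMI count of the spike-ins UniSP2 and UniSP4, the scale of the study, spanned 5.66-fold. UniSP2 gave 165794 to 938898 UMIs per mouse and UniSP4 225 to 1008, so that this mean follows UniSP2 almost alone. The trimmed mean of M-values (TMM), a scale that takes most miRNAs to be level between libraries, spanned 1.68-fold. The geometric mean of the 7 members, called the reference scale below, spanned 1.88-fold.

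**Figure D1:**
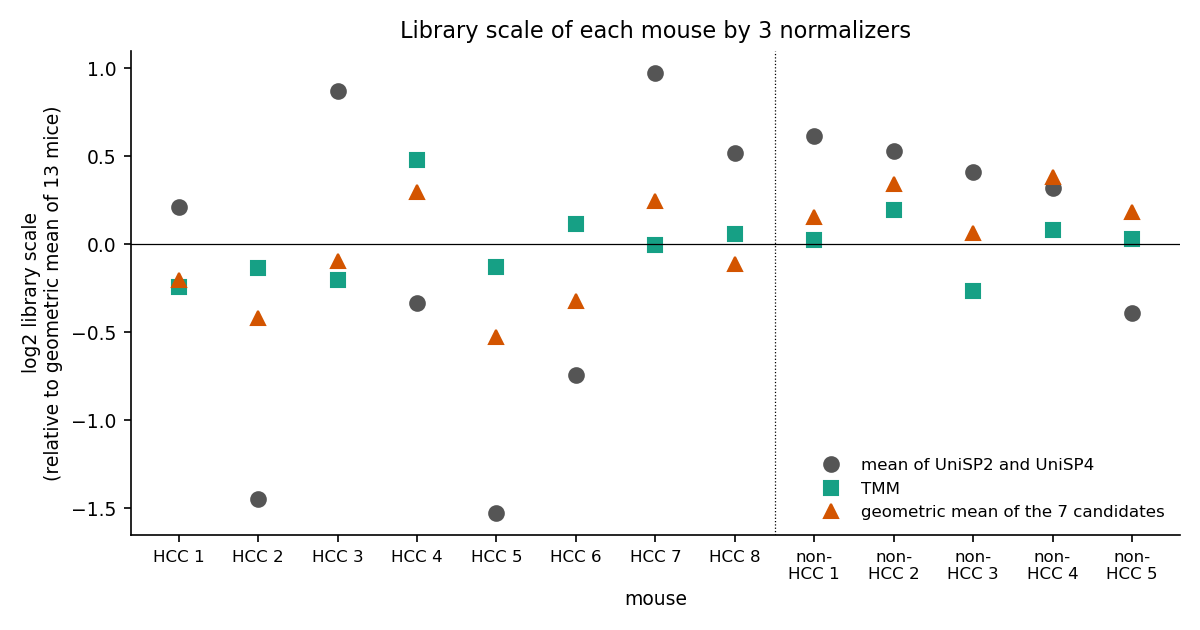
Log2 library scale of each of the 13 mice relative to the geometric mean over mice, for the spike-in mean (circles), TMM (squares) and the geometric mean of the 7 reference candidates (triangles), with HCC mice left of the dotted line. The spike-in scale runs from -1.53 in HCC mouse 5 to 0.97 in HCC mouse 7, while the reference scale stays between -0.53 and 0.38.

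On average the spike-in scale was lower in HCC than in non-HCC mice by 0.48 (log2), the reference scale by 0.37 and the TMM scale by 0.022. The reference scale was -0.14 ± 0.30 (SD, n = 8) in HCC and 0.23 ± 0.13 (SD, n = 5) in non-HCC mice. Relative to TMM, the reference scale was -0.13 ± 0.25 in HCC and 0.21 ± 0.10 in non-HCC mice, so that a miRNA that is level on TMM is 0.35 higher in HCC mice on the reference scale.

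MiR-484 and miR-423-5p were the steadiest of the 253 miRNAs with at least 100 UMIs in every mouse when levels were divided by the spike-ins, and neither was among the steadiest on TMM. The coefficient of variation (SD over mean of linear levels, 13 mice) of miR-484 was 0.271 on the spike-in scale, rank 1 of 253, and 0.412 on TMM, rank 90. That of miR-423-5p was 0.279, rank 2, and 0.349, rank 57. MiR-320-3p was close behind on the spike-in scale, at 0.371 and rank 6, and stood at 0.293 and rank 38 on TMM. MiR-191-5p and miR-425-5p were steadiest on TMM, at 0.169 and 0.194 with ranks 3 and 12, and had 0.533 and 0.522 with ranks 29 and 28 on the spike-in scale. MiR-423-3p (0.742 and 0.360, ranks 106 and 63) and miR-103-3p (0.803 and 0.464, ranks 123 and 124) varied most among the members on the spike-in scale, where the median of the 253 was 0.807, and that median was 0.467 on TMM.

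**Figure D2:**
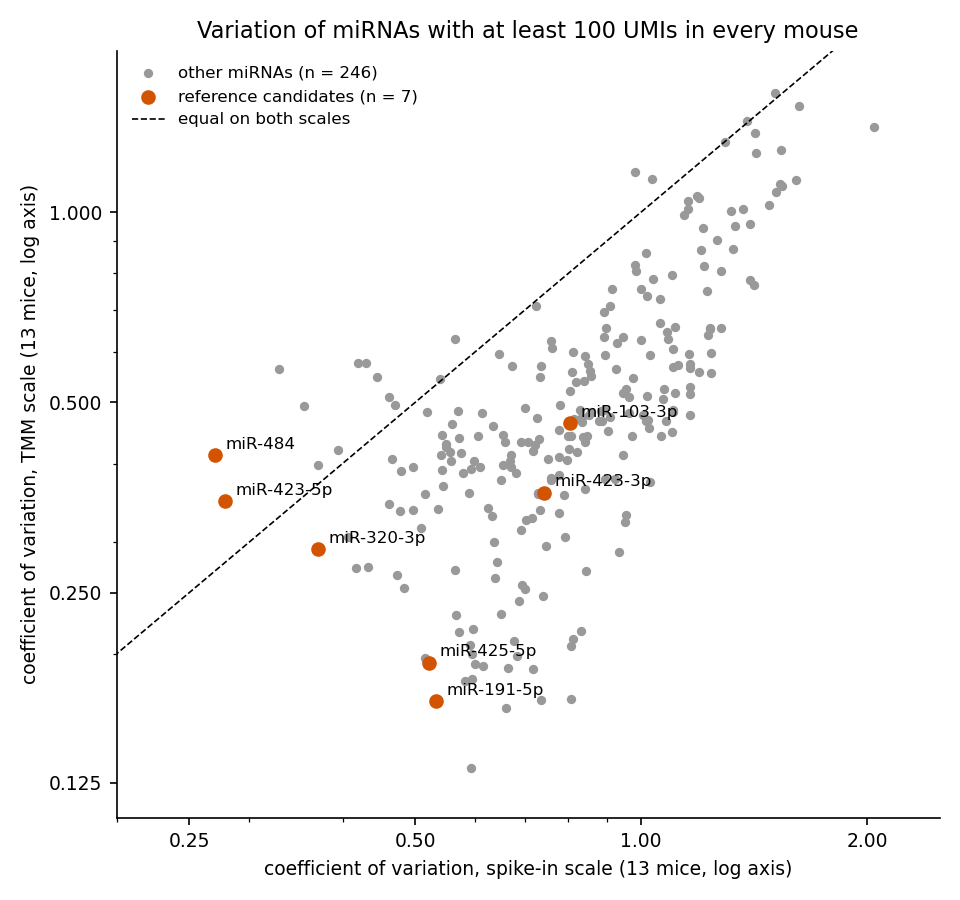
Coefficient of variation over 13 mice on the spike-in scale (horizontal, log axis) against TMM (vertical, log axis) for the 253 miRNAs with at least 100 UMIs in every mouse, with the 7 reference candidates in orange. MiR-484 and miR-423-5p lie farthest left and above the line of equal values, and miR-191-5p and miR-425-5p lie near the bottom.

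The order within these groups was not settled by the data. With each mouse left out in turn, the coefficient of variation on the spike-in scale ran from 0.239 to 0.283 for miR-484 and from 0.249 to 0.292 for miR-423-5p, and the ranges of miR-191-5p (0.489 to 0.563) and miR-425-5p (0.481 to 0.550) overlapped as well. The ranges of miR-423-3p (0.702 to 0.789) and miR-103-3p (0.762 to 0.861) also overlapped, while that of miR-320-3p (0.346 to 0.390) met no other. Leaving out 1 mouse of a similar pair keeps the other, so that these ranges may be too narrow. With the similar pairs summed, the coefficient of variation on the spike-in scale was 0.245 for miR-484, 0.228 for miR-423-5p and 0.346 for miR-320-3p. The third steadiest miRNA on the spike-in scale was miR-328-3p, at 0.329. On TMM the steadiest were miR-501-3p at 0.132, miR-324-3p at 0.164 and miR-191-5p at 0.169. Against UniSP4 alone, which gave only 225 to 1008 UMIs per mouse, miR-484 was again the steadiest miRNA, at 0.172.

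Across the 218 of the 253 miRNAs with a sequence in the table (86.2%), a higher share of guanine and cytosine went with a lower coefficient of variation, with a Spearman correlation of -0.41 on the spike-in scale and -0.36 on TMM. This is a description across miRNAs, which share the same 13 libraries. Without the members it was -0.40 and -0.36 over 212 miRNAs. The part of base composition in the steadiness of miR-484 was not tested.

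MiR-484 showed no group difference that passed the test. On the spike-in scale its log2 level was 13.85, 13.84, 14.08, 14.38 and 14.44 in non-HCC mice 1 to 5, and ran from 13.32 over a median of 14.02 to 14.68 in HCC mice. The groups overlapped, and the mice with the highest and the lowest level were all HCC mice. The log2 fold change of HCC over non-HCC was -0.0026 (SE 0.49, edgeR adjusted p = 0.999), with a 95% interval from -1.01 to 1.01. On TMM it was 14.44, 14.18, 14.76, 14.62 and 14.02 in non-HCC mice and 13.16, 13.64 and 14.99 (lowest, median, highest) in HCC mice. There 5 HCC mice lay below all non-HCC mice and 2, HCC mice 3 and 7, above them, with a log2 fold change of -0.37 (SE 0.34, edgeR adjusted p = 0.667).

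MiR-423-5p, the strand of the Mir423 hairpin that gave more UMIs in all 13 mice, moved with miR-484. Its log2 level on the spike-in scale was 14.14, 14.15, 14.47, 14.62 and 14.81 in non-HCC mice and 14.02, 14.43 and 15.15 (lowest, median, highest) in HCC mice. HCC mice lay on both sides of the non-HCC mice, 3 above all of them and 3 below. The log2 fold change was 0.11 (SE 0.49, edgeR adjusted p = 0.962) on the spike-in scale and -0.29 (SE 0.31, edgeR adjusted p = 0.734) on TMM.

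MiR-423-3p, the other strand of that hairpin, was the member with the highest fold change. Its log2 level on the spike-in scale was 12.14, 11.83, 11.82, 12.29 and 12.63 in non-HCC mice and 11.40, 13.63 and 14.34 (lowest, median, highest) in HCC mice. The non-HCC range was exceeded by 5 HCC mice, and 2, the similar pair HCC 3 and 7, fell under it. The log2 fold change was 1.35 (SE 0.61, edgeR adjusted p = 0.220), with a 95% interval from 0.092 to 2.61. On TMM its level was 12.73, 12.17, 12.50, 12.53 and 12.20 in non-HCC mice and 12.48, 12.97 and 13.79 in HCC mice, 5 of which exceeded every non-HCC mouse while none fell under them all, with a log2 fold change of 0.61 (SE 0.26, edgeR adjusted p = 0.170). DESeq2 with its own size factors called it (0.66, adjusted p = 0.0234), in a test that called 26.2% of the miRNAs given an adjusted p.

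MiR-191-5p, a miRNA of blood cells and many tissues, was the most even member in the non-HCC mice on TMM. There its log2 level was 17.48, 17.30, 17.44, 17.39 and 17.47 in non-HCC mice and 16.77, 17.04 and 17.56 in HCC mice, 6 of which lay below all non-HCC mice and 1 above. The log2 fold change was -0.29 (SE 0.22, edgeR adjusted p = 0.514) on TMM. On the spike-in scale its level was 16.89, 16.96, 16.77, 17.16 and 17.89 in non-HCC mice and 16.11, 17.23 and 18.44 in HCC mice, with a log2 fold change of 0.32 (SE 0.55, edgeR adjusted p = 0.883). The fold change thus turned sign with the scale, and it did not pass the test on either.

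MiR-425-5p, made from the same primary transcript, had a log2 level on TMM of 15.17, 15.42, 15.25, 15.51 and 15.49 in non-HCC mice and 14.72, 14.89 and 15.33 in HCC mice. Of the HCC mice, 7 lay below all non-HCC mice and none above. The log2 fold change was -0.41 (SE 0.21, edgeR adjusted p = 0.262), and only DESeq2 with its own size factors called it (log2 fold change -0.36, adjusted p = 0.0389). On the spike-in scale the level was 14.59, 15.09, 14.57, 15.28 and 15.92 in non-HCC mice and 13.83, 15.31 and 16.16 in HCC mice, and the log2 fold change was 0.21 (SE 0.56, edgeR adjusted p = 0.931).

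MiR-103-3p, known with miR-107 as a regulator of insulin sensitivity in liver and fat, varied most among the members on the spike-in scale, over a 9.19-fold range. Its log2 level there was 14.79, 16.15, 15.09, 15.66 and 17.05 in non-HCC mice and 14.11, 14.80 and 17.31 in HCC mice, with a log2 fold change of -0.028 (SE 0.67, edgeR adjusted p = 0.994). On TMM it was 15.37, 16.48, 15.77, 15.90 and 16.63 in non-HCC mice and 14.36, 15.21 and 15.92 in HCC mice. On TMM 5 HCC mice lay below all non-HCC mice and none above, and the log2 fold change was -0.81 (SE 0.32, edgeR adjusted p = 0.126). MiR-107-3p, which differs from it at the substitution named above, was called lower in HCC mice on TMM, at -1.22 (SE 0.37, edgeR adjusted p = 0.0477), and was -0.33 on the spike-in scale (adjusted p = 0.906). It was the only call on either scale among 6 partner strands and relatives of the members. Of all miRNAs tested, 7.51% were called on the spike-in scale and 9.57% on TMM.

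MiR-320-3p had a log2 level on the spike-in scale of 14.20, 14.46, 14.61, 14.87 and 15.10 in non-HCC mice and 13.80, 14.47 and 15.41 (lowest, median, highest) in HCC mice. HCC mice lay on both sides, 3 above all non-HCC mice and 4 below. The log2 fold change was 0.021 (SE 0.51, edgeR adjusted p = 0.994). On TMM it was 14.79, 14.80, 15.28, 15.11 and 14.68 in non-HCC mice and 13.87, 14.38 and 15.01 in HCC mice, 6 of which lay below all non-HCC mice and none above, with a log2 fold change of -0.50 (SE 0.25, edgeR adjusted p = 0.251).

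**Figure D3:**
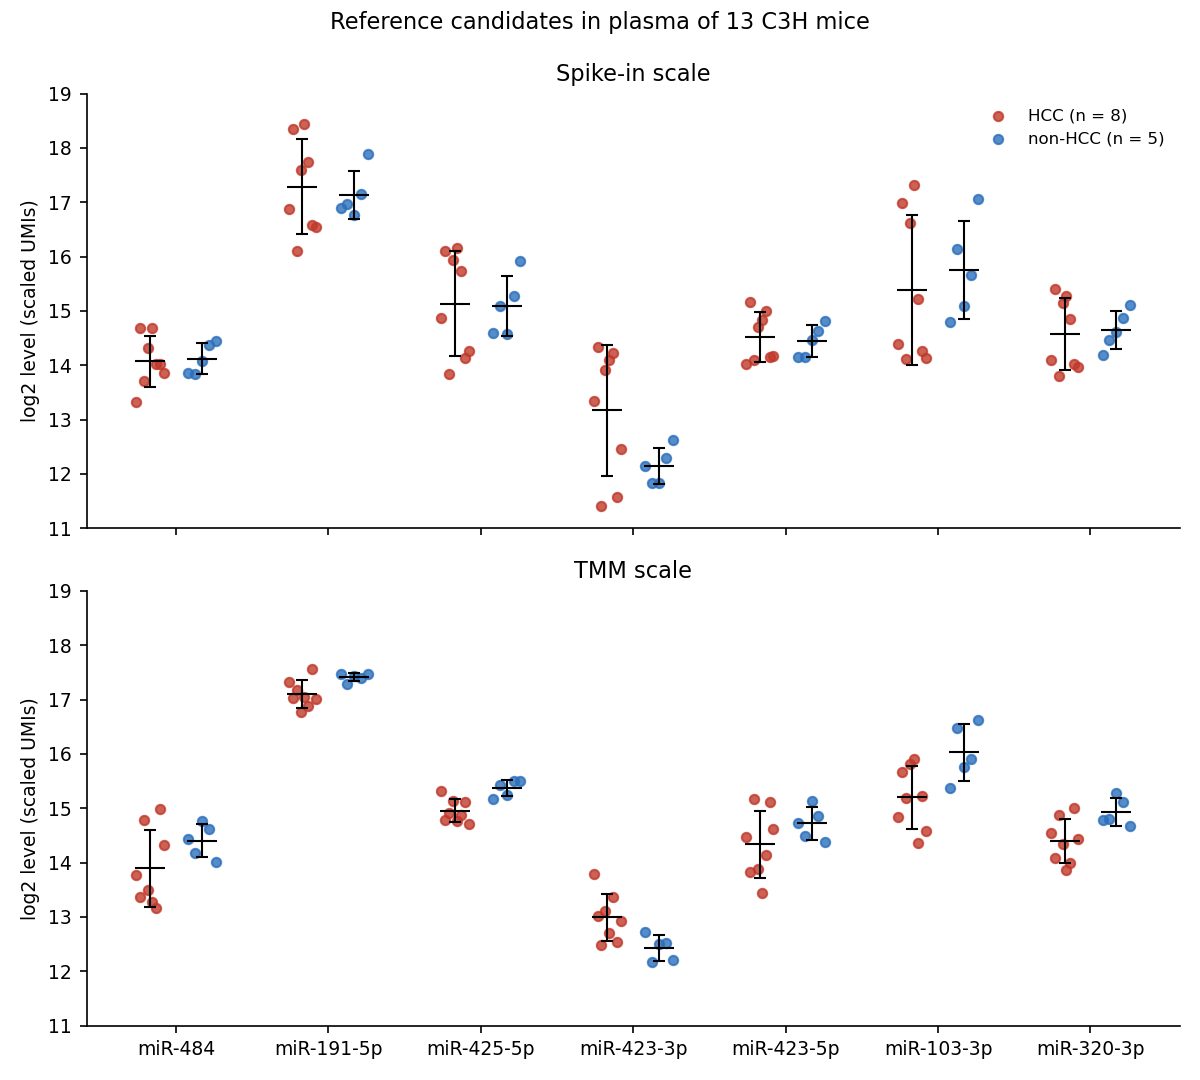
Log2 level of each reference candidate in 8 HCC (red) and 5 non-HCC (blue) mice on the spike-in scale (top) and on TMM (bottom), with the mean and SD of each group in black. On the spike-in scale the HCC values spread to both sides of the non-HCC values for 6 of the 7 and mostly above them for miR-423-3p, and on TMM most HCC values lie below the non-HCC values for miR-484, miR-191-5p, miR-425-5p, miR-103-3p and miR-320-3p.

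Counted together, 0 of the 7 members were called by edgeR on the spike-in scale and 0 on TMM, at an adjusted p under 0.05 over the 1452 miRNAs tested, against 7.51% and 9.57% of all miRNAs tested. At an unadjusted p under 0.05 edgeR passed miR-423-3p on both scales (p = 0.0365 and 0.0327) and miR-103-3p on TMM (p = 0.0211), which is 1 of 7 and 2 of 7 against 19.5% and 22% of all miRNAs tested. On TMM, exact two-sided permutation tests that ran through all 1287 splits into 8 and 5 mice gave an unadjusted p of 0.0249 for miR-191-5p, 0.00622 for miR-425-5p, 0.0241 for miR-423-3p, 0.0264 for miR-103-3p and 0.0256 for miR-320-3p, where 25.7% of all miRNAs tested had an unadjusted p under 0.05. After adjustment over all miRNAs none of the 7 passed, the lowest being miR-425-5p at an exact permutation p of 0.0728 adjusted, against 4.75% of all miRNAs. The groups overlapped in all 7 on both scales, where 1.52% of all miRNAs on the spike-in scale and 5.72% on TMM had groups that did not overlap. A p above the threshold does not show that a member was level, and on the spike-in scale the 95% intervals of the log2 fold changes reached from -1.41 (miR-103-3p) to 2.61 (miR-423-3p). With the similar pairs summed, none was called on either scale, with edgeR adjusted p from 0.264 to 0.997 on the spike-in scale and from 0.171 to 0.775 on TMM. The unadjusted exact permutation p on TMM was then 0.0635 for miR-191-5p and 0.103 for miR-103-3p. It was 0.00794 for miR-425-5p, the smallest that 5 against 5 values can give, 0.0159 for miR-423-3p and 0.0476 for miR-320-3p.

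By distance from the median of the group, HCC mice were more scattered than non-HCC mice in each of the 7, and in most miRNAs. At equal spread this distance tends to be smaller in a group of 5 than in a group of 8. The part of group size in the direction and in the p-values of this paragraph was not tested. The distances were taken from the median of each group before the mice were exchanged, so that these p-values are approximate. On the spike-in scale the mean distance from the group median was larger in HCC mice for 7 of 7 members, by 0.12 (log2) for miR-484 to 0.72 for miR-423-3p, against 86.5% of all miRNAs tested. In the exact permutation of these distances the unadjusted p was 0.0482 for miR-191-5p, 0.0474 for miR-425-5p and 0.0155 for miR-320-3p and above 0.05 for the other 4, where 15.4% of all miRNAs were under 0.05, and after adjustment over all miRNAs the values ran from 0.317 to 0.621 by exact permutation. On TMM the scatter was again larger in HCC mice for 7 of 7, against 76.7% of all miRNAs, by 0.049 for miR-425-5p to 0.33 for miR-484, and 0 of 7 had an unadjusted exact permutation p under 0.05, against 8.75% of all miRNAs. The coefficient of variation of miR-484 within groups was 0.322 in HCC and 0.197 in non-HCC mice on the spike-in scale, and that of miR-191-5p on TMM was 0.181 and 0.0508.

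Ratios between members need no library scale, since the depth of a library cancels. Recovery and capture cancel only as far as they are alike for both sequences, and this was not tested. Over the 21 pairs, the SD of the log2 ratio across 13 mice was lowest for miR-484 over miR-423-5p, at 0.227, and for miR-191-5p over miR-425-5p, at 0.229. It was 0.243 for miR-423-5p over miR-320-3p and highest, at 1.05, for miR-423-3p with miR-103-3p. Averaged over its 6 partners, this SD was 0.442 for miR-320-3p, 0.448 for miR-191-5p, 0.475 for miR-425-5p, 0.525 for miR-423-5p and 0.573 for miR-484, and then 0.801 for miR-103-3p and 0.809 for miR-423-3p. The averages of miR-191-5p and miR-425-5p both include the 0.229 between them, and these are made from the same primary transcript.

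**Figure D4:**
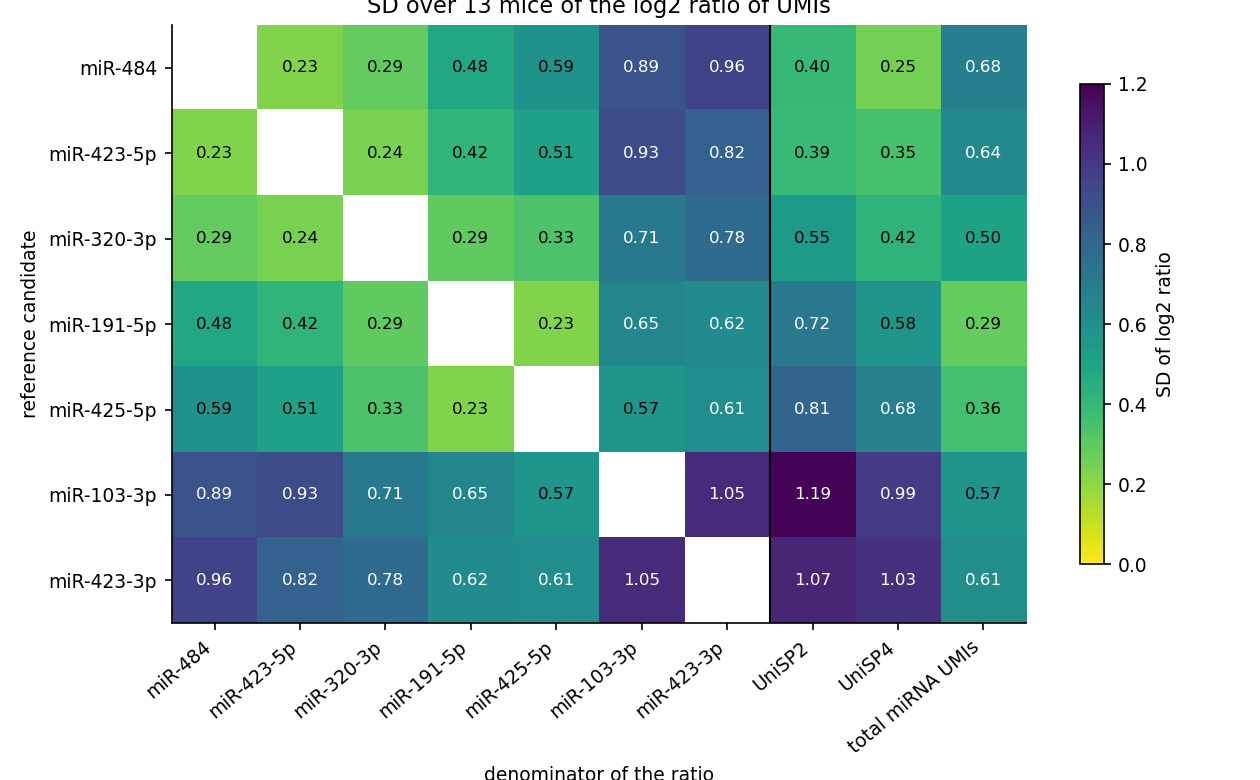
SD over 13 mice of the log2 ratio of UMIs between each pair of reference candidates, and of each candidate over UniSP2, UniSP4 and the total miRNA UMIs (right of the line), with darker cells for larger SDs. MiR-484, miR-423-5p and miR-320-3p form the palest block and vary least against the spike-ins, and miR-191-5p with miR-425-5p forms another that varies least against the total.

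The members differed in what they varied least against. MiR-484 had an SD of 0.40 against UniSP2 and 0.25 against UniSP4, and one of 0.68 against the total of miRNA UMIs. MiR-191-5p had 0.72 and 0.58 against the spike-ins and 0.29 against the total. MiR-320-3p lay between them, with 0.55, 0.42 and 0.50. MiR-423-3p had 1.07, 1.03 and 0.61 and miR-103-3p 1.19, 0.99 and 0.57, above the other members against both spike-ins.

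The strands of the Mir423 hairpin did not keep a fixed ratio. The log2 ratio of miR-423-3p over miR-423-5p was -2.004, -2.31, -2.64, -2.33 and -2.19 in non-HCC mice and -2.69, -0.80 and -0.68 (lowest, median, highest) in HCC mice. The ratio exceeded every non-HCC value in 6 HCC mice, fell under them in HCC mouse 3 and lay among them in HCC mouse 7. The means were -1.34 ± 0.86 (SD, n = 8) and -2.30 ± 0.23 (SD, n = 5), a difference of 0.95 or 1.93-fold (exact two-sided permutation p = 0.0458, and 0.0917 adjusted over the 2 ratios tested). With the similar pairs summed the difference was 0.97 (exact permutation p = 0.0556), and with each mouse left out in turn p was between 0.0139 and 0.0808, under 0.05 only without HCC mouse 3 (0.0139) or HCC mouse 7 (0.0189). The difference therefore did not hold after adjustment.

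The ratio within the Mir191 and Mir425 transcript was even. Its log2 value was 2.30, 1.87, 2.20, 1.88 and 1.98 in non-HCC mice and 1.64, 2.26 and 2.45 in HCC mice. The groups overlapped, with a difference of 0.10 (exact two-sided permutation p = 0.444, adjusted over the 2 ratios 0.444). Their partner strands behaved alike, with an SD of the log2 ratio of miR-425-5p to miR-425-3p of 0.201 and to miR-191-3p of 0.202.

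Among the miRNAs outside the 7, those that kept the steadiest ratio to each member over the 13 mice differed between members. They were miR-92a-3p (SD of log2 ratio 0.212) and miR-92b-3p (0.308) for miR-484, miR-1964-3p (0.324) and miR-1306-5p (0.326) for miR-423-5p, and miR-1306-5p (0.190) and miR-744-5p (0.194) for miR-320-3p. For miR-191-5p they were miR-1981-5p (0.181) and miR-425-3p (0.195), for miR-103-3p miR-181c-3p (0.281) and miR-140-5p (0.306), and for miR-423-3p miR-361-5p (0.179) and miR-24-3p (0.221). These were picked for the smallest SD. For miR-423-3p the SD to the other strand of its own hairpin was 0.825, close to its median of 0.897 over the miRNAs outside the members. Over the miRNAs outside the 7 with at least 100 UMIs in every mouse, the median SD lay between 0.713 and 0.897 for the 7 members.

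When the 7 were used as the scale, 1 of them was called, against 11.7% of all miRNAs tested. MiR-423-3p was higher in HCC mice by 0.98 (log2, SE 0.29, edgeR adjusted p = 0.0392), with an exact permutation p of 0.00777 that became 0.0710 when adjusted, where 24.1% of all miRNAs were under 0.05 before and 6.89% after adjustment. It is itself part of that scale. Each member was therefore also put on the geometric mean of the other 6. The log2 level of miR-423-3p was then 12.57, 11.90, 12.07, 12.14 and 11.93 in non-HCC mice and 12.22, 13.26 and 13.96 (lowest, median, highest) in HCC mice. The similar pair HCC 3 and 7 lay among the non-HCC mice and the other 6 HCC mice above them all, with a log2 fold change of 1.16 (SE 0.32, edgeR adjusted p = 0.0265, and 0.0338 with the similar pairs summed). The call was lost without non-HCC mouse 2, 3, 4 or 5, where the edgeR adjusted p was 0.0737, 0.0698, 0.0661 and 0.0687, and it was not made on the spike-in scale or TMM. The other 6 members, each on the scale of the rest, had log2 fold changes from -0.51 for miR-103-3p to 0.044 for miR-191-5p, with edgeR adjusted p from 0.560 to 0.987.

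On the scale of the other 6, miR-191-5p, miR-425-5p and miR-320-3p were the steadiest, with coefficients of variation of 0.111, 0.154 and 0.154. The scale of miR-191-5p holds miR-425-5p, made from the same primary transcript, and the reverse. Their low values are therefore not independent of each other. MiR-423-5p and miR-484 followed at 0.279 and 0.343, and miR-103-3p and miR-423-3p had 0.517 and 0.538. The median over the 253 miRNAs on the scale of all 7 was 0.470, close to the 0.467 of TMM and below the 0.807 of the spike-in scale.

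The number of miRNAs called between HCC and non-HCC mice differed by scale. On the reference scale 170 of 1452 miRNAs were called, 159 higher and 11 lower in HCC mice. On the spike-in scale 109 were called, all higher, and on TMM 139, of which 107 were higher and 32 lower. With each mouse left out in turn the count ran from 96 (without non-HCC mouse 2) to 202 (without HCC mouse 7) on the reference scale and from 44 (without non-HCC mouse 1) to 157 (without HCC mouse 3) on the spike-in scale, so that these ranges overlapped. The count fell by over 1.5 times without non-HCC mouse 2, 3, 4 or 5 on the reference scale (96, 98, 98 and 103), and on the spike-in scale without HCC mouse 2 (65) or non-HCC mouse 1, 2, 3 or 4 (44, 47, 47 and 53). The reference scale shared 104 calls with the spike-in scale, lost 5 and gained 66. Over the miRNAs tested the log2 fold change had a median of 0.78 on the spike-in scale, 0.52 on the reference scale and 0.17 on TMM, so that a fold change is read relative to these shifts.

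The count also differed with the member that was used alone. With miR-484 alone 118 miRNAs were called (117 higher, 1 lower), and with miR-423-5p alone 110 (109 higher, 1 lower). It was 163 (154 and 9) with miR-191-5p, 182 (179 and 3) with miR-320-3p, 192 (184 and 8) with miR-425-5p and 217 (214 and 3) with miR-103-3p. With miR-423-3p alone the balance turned, with 50 miRNAs higher and 67 lower and a median log2 fold change of -0.38. With the similar pairs summed, 135 of 1401 miRNAs were called on the reference scale (130 higher, 5 lower), 97 on the spike-in scale (all higher) and 99 on TMM (91 higher, 8 lower).

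**Figure D5:**
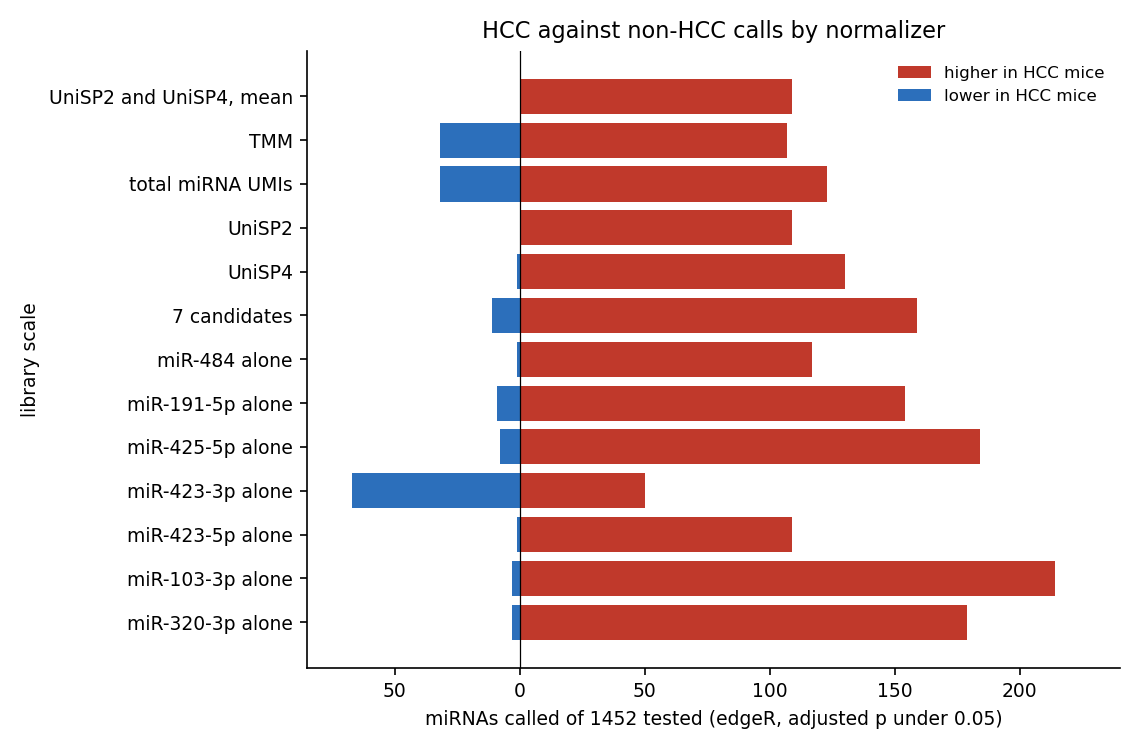
Number of miRNAs called higher (red, right) or lower (blue, left) in HCC than in non-HCC mice by edgeR at an adjusted p under 0.05, of 1452 tested, for each library scale. The spike-in mean gives 109 higher and 0 lower, the 7 candidates together 159 and 11, and miR-423-3p alone 50 and 67.

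The liver marker miR-122-5p was called on every scale tried. Its log2 fold change was 7.34 (SE 1.17, edgeR adjusted p = 0.00303) on the spike-in scale, 6.73 (SE 0.95, adjusted p = 0.00147) on the reference scale and 6.26 (SE 0.87, adjusted p = 0.000803) on TMM, and 5.52 with miR-423-3p alone. Of 10 mouse counterparts of human HCC markers, 5 were called on the spike-in scale, 5 on TMM and 6 on the reference scale, against 7.51%, 9.57% and 11.7% of all miRNAs tested. The one gained was miR-34a-5p, a target of p53, with a log2 fold change of 2.23 (SE 0.65, edgeR adjusted p = 0.0371) on the reference scale, against 2.81 (adjusted p = 0.0583) on the spike-in scale and 1.79 (adjusted p = 0.0633) on TMM. On the reference scale its exact permutation p was 0.0606, and 0.229 adjusted, with 5 of 8 HCC mice above all non-HCC mice. With the total of miRNA UMIs and with UniSP4 alone, 6 of the 10 were called as well.

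Of 16 other miRNAs that are used as references, 0 were called on the spike-in scale, 0 on TMM and 3 on the reference scale, against 7.51%, 9.57% and 11.7% of all miRNAs tested. The 3 were miR-24-3p (1.09, edgeR adjusted p = 0.0259), miR-361-5p (0.98, adjusted p = 0.0286) and miR-22-3p (0.98, adjusted p = 0.0150), each higher in HCC mice. The median coefficient of variation of the 16 is given next. Their median coefficient of variation was 0.791 on the spike-in scale and 0.421 on TMM, against 0.522 and 0.349 for the 7 members. MiR-92a-3p was the steadiest of the 16 on the spike-in scale, at 0.371 and rank 5, and miR-185-5p on TMM, at 0.217 and rank 21. MiR-16-5p, a miRNA of red cells that is widely used as a plasma reference, had 0.659 and 0.433.

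Lists of miRNAs of other plasma sources were followed beside the members. Of all miRNA UMIs, the 7 members held 1.70% to 3.16% in the HCC group and 2.92% to 3.23% in the non-HCC group. A list of 5 liver miRNAs held 4.14% to 51.8% and 0.908% to 1.15% in the same order, with 4 of 5 called higher on the spike-in scale and on TMM. Of all 1452 miRNAs tested, 109 and 107 were called higher on these scales. MiR-122-5p alone held 2.20% to 42.7% of all miRNA UMIs in the HCC group and 0.18% to 0.424% in the non-HCC group. All shares are of the same total, so that a larger share of miR-122-5p leaves less for the other lists. A list of 6 red cell miRNAs held 6.69% to 39.5% and 36.5% to 38.9%, with none called on either scale. Their median log2 fold change was -0.54 on the spike-in scale and -1.11 on TMM. On TMM miR-451a was lower in all 8 HCC mice than in any non-HCC mouse (-1.40, SE 0.50, edgeR adjusted p = 0.0916), where 5.72% of all miRNAs had groups that did not overlap. Of 5 platelet and leukocyte miRNAs, which held 1.23% to 3.25% and 2.75% to 4.90%, 4 were called lower in HCC mice on TMM and 0 on the spike-in scale. Of all 1452 miRNAs tested, 32 were called lower on TMM and 0 on the spike-in scale. Of 5 muscle miRNAs, which held 0.0383% to 1.47% and 0.0737% to 0.368%, none was called on either scale, and no marker of these 4 lists was at 0 in any mouse. The part of these sources in the levels of the 7 members was not tested, and in plasma fewer releasing cells and less miRNA released per cell cannot be told apart.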

How the data were processed

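The deposited table gives raw UMI counts of each miRNA and of UniSP2 and UniSP4 in 13 C3H mice. Per the study's methods, the authors mapped reads to GRCm38, named miRNAs after miRBase and collapsed molecular barcodes. The submitters' processing notes name FastQC and Bowtie2. Columns were assigned to mice by the mouse number of the labels. The 53 columns of the F2 table match no label and were not used, so F2 mice were not analysed here. No value from 1 to 9 occurs, the lowest above 0 being 10.

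Groups were compared on the counts with edgeR 4.0.16 in R 4.3.3 (quasi-likelihood test, Benjamini-Hochberg adjustment over all miRNAs tested, threshold 0.05) keeping miRNAs that reached 5 UMIs in 5 or more mice. The library scale was the mean of UniSP2 and UniSP4, as in the study. TMM, the total, each spike-in, each member and the geometric mean of the 7 or of the other 6 were further scales. The SE is the size of the log2 fold change over the square root of F. Levels are log2 of the count plus 1 over the scale. Coefficients of variation used linear values and were ranked among miRNAs with at least 100 UMIs in every mouse. Single values were compared by exact permutation (numpy 2.4.6, scipy 1.17.1 in Python 3.11.15). DESeq2 1.42.0, limma 3.58.1, other filters, a replicate block, summed pairs and mice left out were alternatives. The tests were tested on simulated data.

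Named miRNAs are the 7 members, the 2 nearest outside miRNAs of each, the 3 steadiest on each scale, partner strands and relatives, other references and human markers, and marker lists of red cells, platelets and leukocytes, liver and muscle. The members and lists were chosen with earlier results of these data known. Nothing in the labels says more of the replicates than that they are separate mice. The intervals of the fold changes rest on the SE from the edgeR test, which includes the spread between mice. The counting error given for single values covers counting only.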

Additional observations from a re-analysis of the deposited data

How the results depend on the processing

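No value of a member was singled out by the gap to its nearest value over the range of its group. Similar libraries can hide each other from this rule. MiR-423-3p on the spike-in scale was 11.40 and 11.57 in the similar pair HCC 3 and 7, against an HCC median of 13.63. The number of miRNAs called on the spike-in scale (109) became 170 with the geometric mean of the 7 members, 217 (156 higher, 61 lower) with DESeq2 and its own size factors, 181 with DESeq2 and spike-in factors and 27 with limma, and 44 to 157 with each mouse left out, falling to 65 without HCC mouse 2 and to 44, 47, 47 and 53 without non-HCC mouse 1, 2, 3 or 4. On the reference scale (170) it became 110 with miR-423-5p alone, 235 (217 higher, 18 lower) with DESeq2 and 96 to 202 with each mouse left out, falling to 96, 98, 98 and 103 without non-HCC mouse 2, 3, 4 or 5. The replicate numbers were not taken to pair the mice. Deviations of same-numbered mice correlated at -0.024 to 0.46, over 0.1 in 3 of 5 pairs, and 2 of 5 non-HCC mice correlated best with their own number. The replicate block over the 10 mice numbered 1 to 5 gave 146 calls, against 165 in these 10 mice without it, and 118 on the reference scale. That fit, which also leaves out HCC mice 6, 7 and 8, had miR-484 at 0.018 and miR-103-3p at 0.14 on the spike-in scale, and miR-423-5p at -0.24 on the scale of the other 6. It changed no call of a member. Without HCC mouse 6, 7 or 8 alone and with no block, miR-484 had 0.014, 0.0145 and 0.034. The parts of the block and of the mice left out were not tested.

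The log2 fold changes of the members on the spike-in scale turned sign as follows, the cause being the change of scale where only that was changed and otherwise not tested. With TMM, miR-191-5p had -0.29, miR-425-5p -0.41, miR-423-5p -0.29 and miR-320-3p -0.50, with the total -0.19, -0.27, -0.16 and -0.37, and with DESeq2 and its own size factors -0.25, -0.36, -0.24 and -0.45. On the other 6, miR-425-5p had -0.075 and miR-320-3p -0.22. With UniSP4 alone miR-484 had 0.038, with limma miR-320-3p had -0.076, and with similar pairs summed miR-320-3p had -0.0035 and, on the other 6, miR-423-5p -0.0070. MiR-423-3p was called on the other 6 (1.16) and by DESeq2 with its own factors (0.66), which also called miR-425-5p (-0.36). With each mouse left out, the fold change ran from -0.10 to 0.084 for miR-484, -0.39 to 0.44 for miR-103-3p and -0.11 to 0.15 for miR-320-3p on the spike-in scale, and on the other 6 from -0.10 to 0.11 for miR-423-5p and 1.04 to 1.29 for miR-423-3p.

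The coefficient of variation moved by more than its standard error with the total for all 7 (miR-484 0.419, miR-191-5p 0.181, miR-425-5p 0.216, miR-423-3p 0.456, miR-423-5p 0.359, miR-103-3p 0.418, miR-320-3p 0.288), with UniSP4 for miR-484 (0.172), and on the other 6 for miR-484 (0.343), miR-191-5p (0.111), miR-425-5p (0.154), miR-103-3p (0.517) and miR-320-3p (0.154). With each mouse left out, that of miR-423-3p on TMM ran from 0.259 (without HCC mouse 1) to 0.377. The log2 ratio of miR-423-3p over miR-423-5p was 0.97 with pairs summed (exact permutation p = 0.0556) and 0.86 to 1.14 with each mouse left out. Of the other values, 719 kept their side of the threshold or moved within their error. Counting error was at most 1.44% of a member's value.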
